A study of Homo sapiens with 6 samples.

Results

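Untreated K562 cells that overexpress SLFN11 with the E669Q substitution were compared with untreated K562 cells that overexpress wild-type SLFN11. Both lines were given DMSO, the solvent of the drug arm of the series, and each is represented by 1 ATAC-seq library, so that 2 of the 6 libraries of the series are compared. ATAC-seq marks open chromatin through the DNA fragments that a transposase cuts free. The members are the distinct intervals of the 2 deposited peak lists, 8365 for E669Q and 11651 for wild-type SLFN11, of 48967 intervals summed over the 6 libraries. The other 4 libraries were used only to see whether a difference was found again. They are a K562 vector line given DMSO, and all 3 lines given 1000 nM camptothecin (CPT), which traps topoisomerase I on DNA, for 4 h. All 3 lines are gene-modified K562, and the labels do not say whether a line is 1 clone, which promoter drives SLFN11 or how long the lines were grown apart.

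SLFN11 is a Schlafen-family protein that is recruited to stressed replication forks and sensitises cells to drugs that damage DNA. E669Q changes a glutamate of the Walker B motif, which an ATPase needs to hydrolyse ATP. K562 is an established human chronic myeloid leukaemia line with a rearranged karyotype, in which long stretches of chromosomes are present in unequal numbers. Open chromatin is mostly found at promoters and enhancers.

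With 1 library per line no difference has a replicate check, and no test and no p-value was made. The 95% intervals below cover counting error alone and treat intervals as independent. An interval was called shared when it overlapped an interval of the other list by at least 1 bp. Because the wild-type library was 1.29 times as deep as that of E669Q, the wild-type list was cut to its 8365 strongest intervals by the authors' −log10 p, and these equal lists are used unless stated otherwise. The cut kept 71.8% of the wild-type list and ended at a −log10 p of 7.62, where the E669Q list went down to 5.09. Depth was recovered from the lists and ran from 1.00 to 2.22 over the 6 libraries, relative to the shallowest. Positions are on hg19, counted from 1. Gene names are not given, because no hg19 annotation was used, so that the erythroid marker genes of K562 and the SLFN11 gene itself could not be checked in these lists.

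The lists of both lines held mostly the same strong regions and differed in the weak ones. Of the E669Q intervals 5578 (66.7%, 95% interval 65.7 to 67.7) overlapped the wild-type list, and of the wild-type intervals 5505 (65.8%, 64.8 to 66.8) overlapped the E669Q list. The unshared intervals were thus 33.3% of the E669Q list and 34.2% of the wild-type list. Of the 2091 strongest intervals of the E669Q list 90.5% (89.2 to 91.7) were shared, of the next 2091 each 73.2% and 60.2%, and of the 2092 weakest 42.9% (40.7 to 45.0). The wild-type list fell in the same way, from 91.2% to 43.3%. The shares depend on list length, and in the lists as deposited they were 76.6% of E669Q and 54.7% of wild-type SLFN11 intervals.

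The regions found in 1 line alone were weak within their own list. For this, an interval counted as E669Q alone if it overlapped nothing in the full wild-type list (1956 intervals), and as wild-type alone if it was in the cut wild-type list and overlapped nothing in the E669Q list (2860). The E669Q-alone intervals had a median fold enrichment of 5.28, which is the authors' ratio of summit signal over local background, and a median summit of 7 fragments. Intervals of the E669Q list that were shared had 6.31 and 10 fragments. In the cut wild-type list the medians were 6.29 and 10 fragments for wild-type-alone intervals, against 7.15 and 15 for shared ones. Intervals of 150 bp or less made up 24.9% of the E669Q-alone intervals and 10.0% of the shared ones, so many of the former rest on a narrow stack of fragments.

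The open regions were distributed differently over the chromosomes in the 2 lines. E669Q had larger shares of its list on chromosomes 19 (1.17 percentage points, 95% interval 0.513 to 1.83), 4 (1.05, 0.352 to 1.75), 15 (0.968, 0.543 to 1.40) and 12 (0.909, 0.343 to 1.48). It had smaller shares on chromosomes 5 (−1.28 points, −2.00 to −0.563) and 6 (−1.05, −1.86 to −0.240). These 6 are the chromosomes, of 23 compared (26.1%), whose interval excluded 0, with no adjustment for their number. In counts, chromosome 15 held 210 E669Q and 129 wild-type intervals, chromosome 12 held 340 and 264, chromosome 4 held 517 and 429, and chromosome 19 held 465 and 367. Chromosome 5 held 443 and 550, and chromosome 6 held 607 and 695. The unshared intervals show the same lean. On chromosome 15, 132 E669Q intervals (62.9%) had no wild-type counterpart, against 51 (39.5%) the other way. On chromosome 5 the numbers were 98 (22.1%) and 207 (37.6%).

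**Figure D1:**
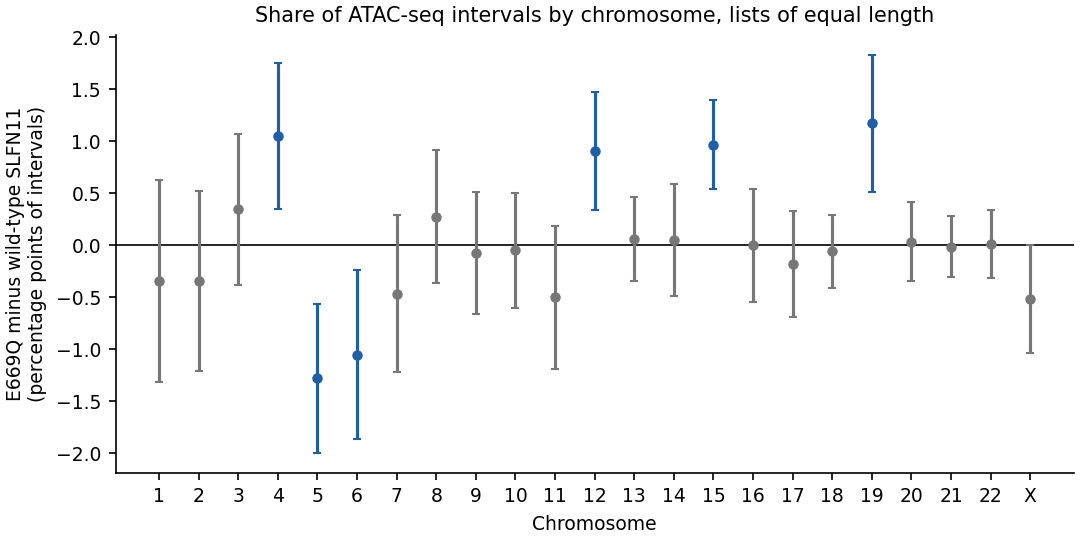
Difference between E669Q and wild-type SLFN11 (both DMSO) in the share of intervals on each chromosome, in percentage points, lists of 8365 intervals each. Points are the difference and bars its Newcombe 95% interval (counting error only); blue marks the 6 chromosomes whose interval excludes 0, with 4, 12, 15 and 19 above 0 and 5 and 6 below.

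To set these differences beside the other libraries, each of the 6 lists was cut to its 5246 strongest intervals, the length of the shortest. Chromosome 12 then held 3.77% of the E669Q list with DMSO and 3.89% with CPT. The other 4 libraries held 2.63% (wild-type SLFN11, DMSO), 3.20% (wild-type SLFN11, CPT), 3.28% (vector, DMSO) and 2.82% (vector, CPT). Both E669Q libraries were thus above the other 4. Chromosome 4 had the same order, with 6.79% and 7.05% in the E669Q libraries and 4.37% to 5.51% in the others, as did chromosome 15, with 1.93% and 2.097% against 1.05% to 1.41%. On chromosome 5 both E669Q libraries (5.80% and 5.19%) were below the other 4 (6.41% to 7.68%). Chromosome 19 did not separate the line in this way, since E669Q had 5.43% and 6.04%, wild-type SLFN11 3.603% (DMSO) and 6.08% (CPT), and the vector 2.25% and 2.82%. On chromosome 6 the E669Q libraries were lowest (7.99% and 7.57%), with wild-type SLFN11 with CPT next to them at 8.01%. Compared directly, E669Q with CPT against wild-type SLFN11 with CPT (5562 intervals each) differed by 2.72 points on chromosome 4 (1.86 to 3.57), −1.15 on chromosome 5 and 0.629 on chromosome 15, with intervals that exclude 0. The intervals of chromosomes 12 (0.521, −0.171 to 1.22), 19 (0.144, −0.746 to 1.03) and 6 (−0.413) included 0.

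The lists carry a second measure, the local background: the fragments in about 10 kb around a summit, which the peak caller used as its expectation and which was recovered here from fold and −log10 p. At 6329 of the 6409 intervals that the E669Q list shared with the full wild-type list, both backgrounds could be recovered. All values below are log2 ratios of E669Q over wild-type SLFN11, relative to the median over these intervals. Scaled by the lowest background in each library instead, that median is −0.10, so every value would be lower by that amount. The window holds the open region too, so background and summit are not independent.

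By at least 0.2 the median local background differed on 4 chromosomes, which were those with larger interval shares. It was higher in E669Q by 0.47 (95% interval 0.40 to 0.53, 114 intervals) on chromosome 15, by 0.42 (0.33 to 0.48) on chromosome 12, by 0.35 (0.28 to 0.42) on chromosome 19 and by 0.29 (0.24 to 0.33) on chromosome 4. Smaller shifts, under 0.2, were downward on chromosomes 11 (−0.15, −0.19 to −0.13), 5 (−0.14, −0.19 to −0.09) and 6 (−0.14, −0.17 to −0.08). Chromosome 3 was higher by 0.15 (0.10 to 0.21), and the other 15 chromosomes lay between −0.09 and 0.06, of which 1, 2, 7, 8, 10 and 16 had intervals that exclude 0.

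Along the chromosomes the shifts were followed in bins. In bins of 10 Mb with at least 5 shared intervals, the median background was higher in E669Q by at least 0.2 in 55 of 294 bins (18.7%) and lower by at least 0.2 in 48 (16.3%). Runs of at least 3 adjacent bins past that threshold in 1 direction are called blocks here. There were 6 raised and 4 lowered blocks, and the DMSO values below were what selected them, so they describe the blocks and test nothing. On chromosomes 4, 5, 12 and 19 the shifts differed between long stretches, while chromosome 15 was raised in every measured bin. Chromosome 11 was also lower outside its block (−0.13, −0.15 to −0.09), and chromosome 6 held no block. Block limits are bin edges, and the last bin of a chromosome ends where the chromosome does.

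The raised blocks were chromosome 12 from 50 to 140 Mb (0.52), all measured bins of chromosome 15 from 20 to 110 Mb (0.47), chromosome 4 from 70 to 200 Mb (0.43), chromosome 19 from 0 to 50 Mb (0.41) and, on chromosome 3, both ends, from 160 to 200 Mb (0.39) and from 0 to 50 Mb (0.25). The lowered blocks were chromosome 5 from 0 to 50 Mb (−0.50) and from 80 to 110 Mb (−0.34), chromosome 1 from 60 to 100 Mb (−0.31) and chromosome 11 from 10 to 50 Mb (−0.30). A log2 value of 0.52 is a ratio of 1.44, and −0.50 one of 0.71. Blocks on chromosomes 12, 15 and 4 and the second of chromosome 3 were found again, some in shorter runs, under 2 other centrings, thresholds of 0.25 and 0.3, a filter on the lowest backgrounds and bins of 5 Mb. Those of chromosome 19 and of chromosome 5 from 0 to 50 Mb were found under each of these except bins of 5 Mb, where a run needed 6 bins. The first block of chromosome 3 was lost in 4 of the 6 settings. The number of lowered blocks went from 1 to 13.

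**Figure D2:**
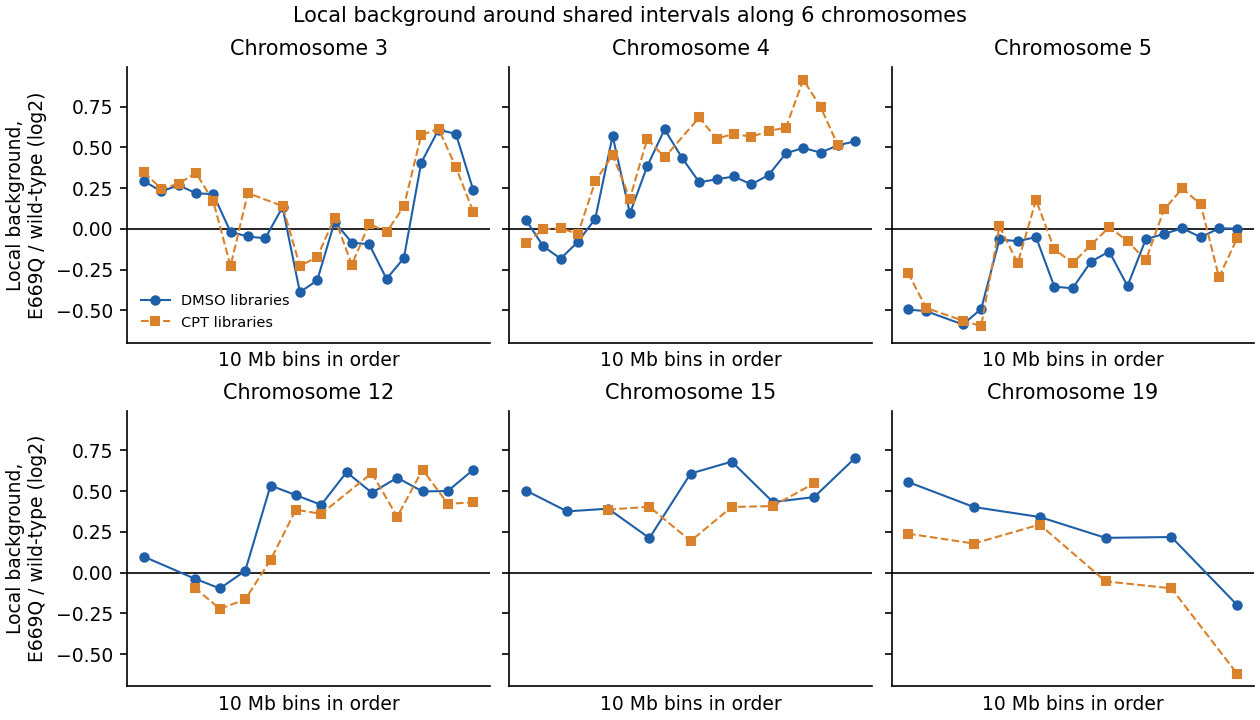
Median local background at shared intervals, E669Q over wild-type SLFN11 on a log2 scale relative to all shared intervals, in 10 Mb bins placed in order along 6 chromosomes. Blue circles are the DMSO libraries and orange squares the CPT libraries (bins with at least 5 shared intervals); chromosome 12 steps up once, the start of chromosome 5 is low, chromosome 15 is raised throughout and the last bin of chromosome 19 is low in both pairs.

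The pair of libraries with CPT, which shares no library with the DMSO pair, gave the blocks a second measurement. There the background of E669Q over wild-type SLFN11 was 0.61 (0.53 to 0.69, 122 intervals) in the block of chromosome 4, 0.41 (0.27 to 0.54) in that of chromosome 15 and 0.40 (0.33 to 0.47) in that of chromosome 12. It was 0.29 (0.22 to 0.37) and 0.25 (0.12 to 0.43) in the first and second blocks of chromosome 3, and −0.45 (−0.56 to −0.27, 47 intervals) in that of chromosome 5 from 0 to 50 Mb. These 6 blocks thus had the same direction, with intervals that exclude 0, in both pairs. In the block of chromosome 19 the value was smaller, 0.12 (0.08 to 0.18). The other lowered blocks were weaker with CPT. Chromosome 5 from 80 to 110 Mb had −0.15 (−0.23 to −0.03), and the intervals of chromosome 1 (−0.07, −0.13 to 0.03) and chromosome 11 (−0.12, −0.33 to 0.01) included 0.

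Over single bins the pairs leaned the same way. Of 47 bins raised by at least 0.2 with DMSO and measured in both pairs, 42 were above 0 with CPT, at a median of 0.39. Of 44 bins lowered by at least 0.2, 36 were below 0 with CPT, at a median of −0.10. Of the 178 bins in between, 81 were above 0 with CPT. Over all 269 bins Pearson's r was 0.674 and Spearman's rho 0.507, as a description, since neighbouring bins share chromosomes and both pairs share the cell lines.

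**Figure D3:**
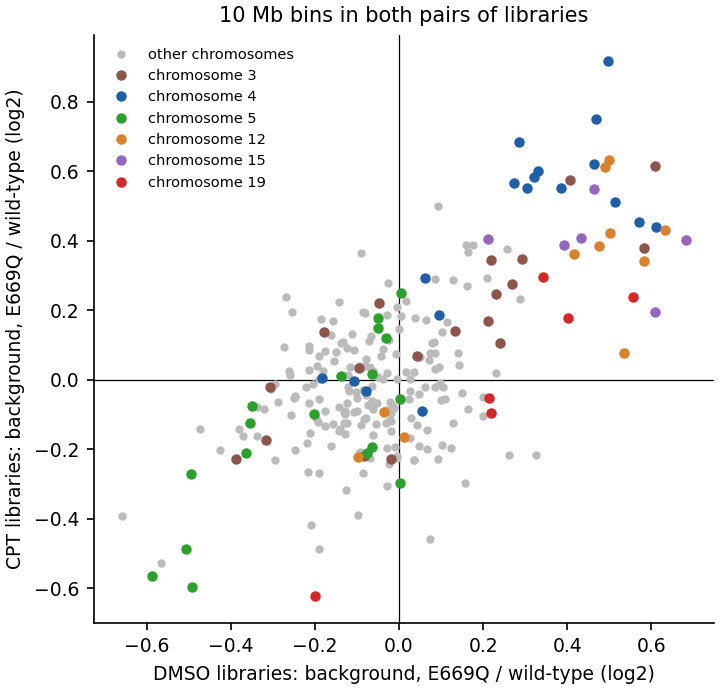
Median local background of 269 bins of 10 Mb, E669Q over wild-type SLFN11 on a log2 scale, in the DMSO libraries (x axis) and in the CPT libraries (y axis); each point is 1 bin with at least 5 shared intervals in both pairs. The upper right holds mostly bins of chromosomes 4, 12, 15 and 3, whose other bins lie nearer to 0. The far lower left holds 4 bins of chromosome 5 with 1 each of chromosomes 11 and X (grey), and further bins lie lower left but nearer to 0. The last bin of chromosome 19 has the lowest CPT value (−0.62, against −0.20 with DMSO).

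Where a stretch began or ended could be placed from the order of the shared intervals. For each chromosome the split that best divides its intervals into 2 levels (least squares) was found in each pair of libraries on its own. Such a split exists on every chromosome, so it means something only where it removes much of the variance and recurs. On chromosome 12 the split removed 41.9% of the variance with DMSO and 40.1% with CPT. It lay between 53056535 and 53473102 with DMSO, and between 52463536 and 53399940 with CPT, so that the 2 windows overlap. The median background went from −0.01 before the step to 0.55 after it with DMSO, and from −0.15 to 0.43 with CPT. The step lies in the long arm, so the raised stretch is the distal part of that arm.

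Chromosome 19 had its step near the end of the long arm. With DMSO it lay between 51228431 and 51870871 and removed 26.6% of the variance, and with CPT between 51308364 and 51611613 and removed 40.0%, again with overlapping windows. Here the background fell, from 0.38 to −0.45 with DMSO and from 0.12 to −0.82 with CPT. The end of this arm is known for clusters of zinc-finger genes and of immune receptor genes. Chromosomes 12 and 19 were the 2 of 23 on which the windows overlapped.

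On chromosome 5 the step fell at the same region in both pairs. The last interval before the split with DMSO ends at 44809196, the first after it with CPT starts at 44808793, and these 2 overlap. The next shared interval with DMSO starts at 49438301, and the centromere lies between it and the interval that ends at 44809196. With DMSO the lowered stretch is therefore the short arm. With CPT the split lay between 43557070 and 44808793, short of the centromere, so the windows of the pairs do not overlap. The background was −0.53 before and −0.10 after the step with DMSO, and −0.49 and −0.06 with CPT. The split removed 12.7% and 15.3% of the variance. On chromosome 4 the pairs placed the step 25.8 Mb apart, between 74904741 and 75023632 with DMSO and between 48782534 and 49139070 with CPT, while both had a raised distal long arm. The bin of 50 to 60 Mb was raised in both pairs (0.57 and 0.45), and that of 60 to 70 Mb hardly (0.10 and 0.19).

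The number of open regions called was compared on both sides of these steps. The background of the same DMSO libraries placed the steps, so these counts describe the stretches and test nothing. After 53473102 on chromosome 12 the E669Q list held 248 intervals and the wild-type list 168, a difference of 0.956 points (0.485 to 1.43). Before 53056535 it held 91 against 95. Up to 44809196 on chromosome 5 the numbers were 51 and 90 (−0.466 points, −0.751 to −0.190), and from 49438301 on they were 391 and 459 (−0.813, −1.48 to −0.147). The deficit of chromosome 5 thus lay on both arms, although the background was −0.53 before the step and −0.10 after it. After 75023632 on chromosome 4 they were 332 and 255 (0.921, 0.363 to 1.48), and before 74904741 they were 185 and 172. Chromosome 19 went both ways, with 444 against 312 up to 51228431 (1.58, 0.9497 to 2.21) and 21 against 54 after 51870871 (−0.394, −0.609 to −0.194). The larger share of chromosome 19 in E669Q is therefore the sum of a surplus over most of the chromosome and a deficit at its end.

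The same counts in each library, in lists of 5246 intervals, show which line stands apart. After the step of chromosome 12 E669Q had 144 intervals (DMSO) and 154 (CPT), against 89 and 108 in wild-type SLFN11 and 108 and 93 in the vector. On the short arm of chromosome 5 there were 32 and 31 in E669Q, against 58 and 59 in wild-type SLFN11 and 75 and 65 in the vector. After the step of chromosome 4 there were 233 and 237 in E669Q, against 168 and 131 in wild-type SLFN11 and 165 and 182 in the vector. In these 3 stretches both E669Q libraries lay outside the range of the other 4. The DMSO libraries of E669Q and wild-type SLFN11 placed the steps, so only the vector libraries and those with CPT add to this. At the end of chromosome 19 there were 9 and 12 in E669Q, against 24 and 38 in wild-type SLFN11 and 18 and 18 in the vector. Over the rest of chromosome 19 there were 276 and 303 in E669Q, 164 and 277 in wild-type SLFN11 and 100 and 130 in the vector, so that both SLFN11 lines were above the vector there.

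The background in each library gave the same order without reference to list length. It was taken at the intervals found in all 6 libraries, as the median of a block relative to the library's own median. In the block of chromosome 12 (27 intervals) it was 0.02 in E669Q with DMSO and −0.05 with CPT. It was −0.45 and −0.45 in wild-type SLFN11, and −0.47 and −0.45 in the vector, so the 4 libraries without the substitution lay together. In the block of chromosome 15 (12 intervals) it was −0.14 and −0.25 in E669Q, −0.64 and −0.68 in wild-type SLFN11, and −0.39 and −0.49 in the vector. In the block of chromosome 4 (57 intervals) it was 0.27 and 0.17 in E669Q, and −0.37 to −0.20 in the other 4. In the block of chromosome 5 from 0 to 50 Mb (26 intervals) it was −0.52 and −0.39 in E669Q, and 0.13 to 0.15 in the other 4. The second block of chromosome 3 (22 intervals) had 0.22 and 0.13 in E669Q and −0.45 to −0.05 in the others. On chromosome 15 the vector lay between the other lines. Both E669Q libraries lay outside the range of the other 4 in 8 of the 10 blocks, by 0.04 on chromosome 11 and by 0.52 on chromosome 5 from 0 to 50 Mb, the narrowest and the widest gap. The exceptions were chromosome 5 from 80 to 110 Mb and chromosome 19. Since the DMSO values of E669Q and wild-type SLFN11 selected the blocks, only the vector libraries and those with CPT add to this.

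**Figure D4:**
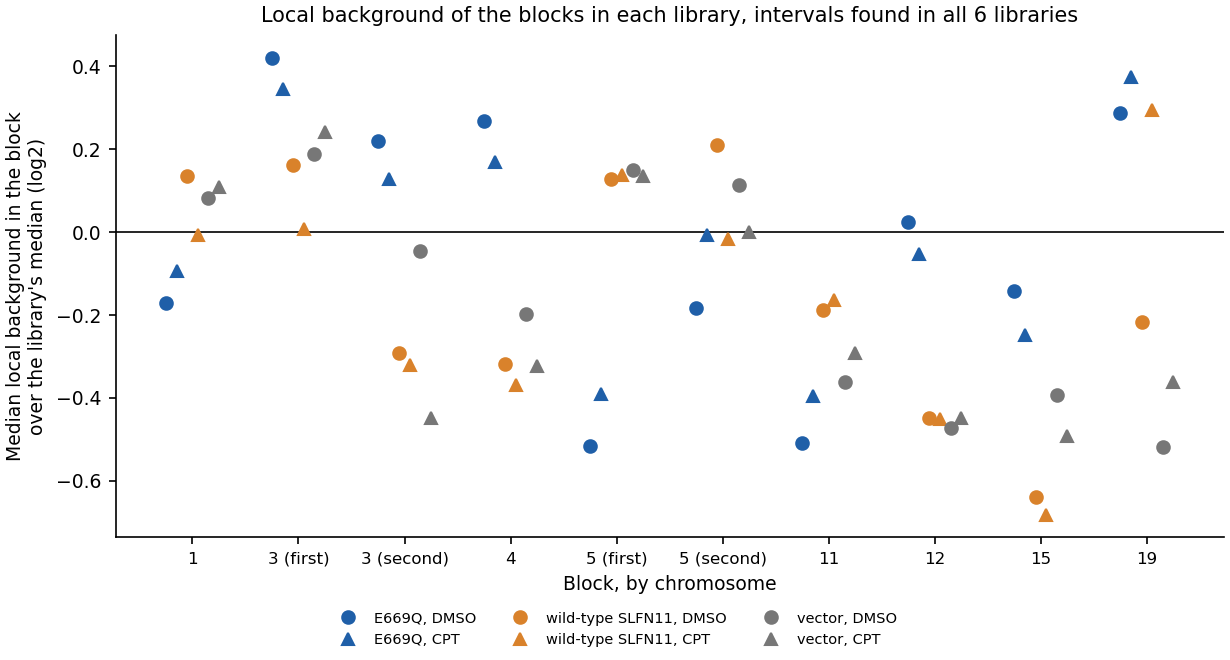
Median local background in each of the 10 blocks, on a log2 scale relative to the library's own median, at intervals found in all 6 libraries (12 to 57 per block); each point is 1 library. Both E669Q libraries (blue) lie outside the range of the other 4 in 8 blocks; the exceptions are the second block of chromosome 5 and chromosome 19, where wild-type SLFN11 with CPT lies beside E669Q.

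Chromosome 19 was different. In its block (31 intervals) E669Q had a background of 0.29 (DMSO) and 0.38 (CPT), wild-type SLFN11 one of −0.22 and 0.29, and the vector one of −0.52 and −0.36. The wild-type line thus lay between the vector and E669Q before drug and beside E669Q with CPT. Within the chromosome the difference between E669Q and wild-type SLFN11 with DMSO fell along the chromosome, with 0.56 in the first 10 Mb, then 0.40, 0.34, 0.21 and 0.22, and −0.20 in the last bin. The first bin held 152 E669Q and 93 wild-type intervals and the second 122 and 86, which were the 2 bins of the genome with the largest surplus. The last held 43 and 68, the bin with the largest deficit.

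Summits were higher where the background was higher, while their enrichment over background differed less. Summit heights were scaled for depth by the lowest background of each library (−0.43 on the log2 scale), not by the depth ratio of 1.29. In the raised blocks the summit height of shared intervals, scaled for depth, was higher in E669Q by a median of 0.34, the background by 0.41 and the fold enrichment by −0.03. Outside all blocks these medians were −0.02, −0.06 and −0.12, and in the lowered blocks −0.28, −0.34 and −0.23. These medians do not share a zero. The background is relative to its median over all shared intervals, while summits and fold are not centred in this way. With the scaling of the summits that median background is −0.10, so each background value would be lower by that amount. The fold contains a pseudocount of 1 and so rises with depth, and its median over all shared intervals was −0.11 in the shallower E669Q library. Of 6329 shared intervals 194 had a summit at least 2-fold higher in E669Q (3.07%) and 131 one at least 2-fold lower (2.07%). In the raised blocks these were 103 of 1054 (9.77%) and 2, and outside all blocks 90 of 5026 (1.79%) and 117 (2.33%). By fold enrichment, 10 of 6409 (0.156%) were at least 2-fold higher and 69 (1.08%) at least 2-fold lower. How many copies of these stretches the DNA of each line holds was not measured, and more DNA and more openness along a whole stretch cannot be told apart from these lists.

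The blocks held a part of the difference between the lists. Raised blocks held 18.9% of the E669Q list and 13.9% of the wild-type list. Within them 44.8% of the E669Q intervals (707 of 1578) had no wild-type counterpart, against 25.9% (302 of 1165) the other way. In lowered blocks these shares were 22.5% (68 of 302) and 40.7% (157 of 386). Outside the blocks they were 31.1% and 35.3%, so most unshared intervals of both lines (2007 of 2787 and 2395 of 2860) lay there. On chromosome 12 the rest of the chromosome held 82 E669Q and 84 wild-type intervals, and on chromosome 4 it held 172 and 158. On chromosome 5 a deficit remained outside its 2 blocks, 337 against 385, with an interval that includes 0 (−0.574 points, −1.19 to 0.0425).

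Bin by bin, few differences in the number of intervals went beyond counting error. Of 301 bins of 10 Mb with at least 10 intervals in the lists together, 8 (2.66%) had a share that was higher in E669Q with an interval excluding 0, and 3 (0.997%) a lower one. There was no adjustment for the number of bins. Counting error alone can give this many, so a single bin named below is not an established difference. The raised bins were 2 at the start of chromosome 19, 3 on chromosome 15 between 60 and 90 Mb, and 1 each on chromosomes 12, 3 and 13. On chromosome 12 from 120 to 130 Mb there were 55 and 28 intervals, and on chromosome 15 from 60 to 70 Mb there were 31 and 13. The lowered bins were the last of chromosome 19, chromosome 5 from 10 to 20 Mb (11 and 23) and chromosome 7 from 20 to 30 Mb (25 and 42). With bins moved by 5 Mb, 5 were raised and 2 lowered. With CPT all 10 of these bins that could be compared differed in the same direction, 5 of them by at most 0.09 points. The next largest deficits had intervals that include 0. They were chromosome 6 from 20 to 30 Mb (63 and 79), known for the large cluster of histone genes, and from 10 to 20 Mb (45 and 60), chromosome 5 from 170 to 180 Mb (59 and 73) and chromosome 11 from 0 to 10 Mb (59 and 72). Chromosome 19 from 40 to 50 Mb had 86 and 63, also within counting error.

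Regions of untreated E669Q cells that were missing in untreated wild-type SLFN11 cells were found again more often in the other E669Q library than elsewhere. With each other list cut to 5246 intervals, 19.3% (17.6 to 21.1) of the 1956 E669Q-alone intervals were in E669Q with CPT. The share was 11.1% (9.78 to 12.6) in wild-type SLFN11 with CPT, 10.0% (8.73 to 11.4) in vector with DMSO and 9.66% (8.39 to 11.1) in vector with CPT. Wild-type-alone intervals showed no such order. The sets were chosen differently. Wild-type-alone intervals are missing from the shallower E669Q list, and E669Q-alone intervals from the full, deeper wild-type list. Levels are therefore not comparable between the sets, and whether the choice bears on the order was not tested. Of the 2860, 22.3% (20.8 to 23.8) were in wild-type SLFN11 with CPT, 20.0% (18.6 to 21.6) in E669Q with CPT, 23.3% (21.8 to 24.9) in vector with DMSO and 25.2% (23.7 to 26.9) in vector with CPT. Regions present in untreated wild-type SLFN11 and missing in untreated E669Q cells were thus found in the vector line at least as often as in the wild-type line with CPT. For intervals of both lists these shares were 54.3% to 59.3% in the 4 libraries.

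**Figure D5:**
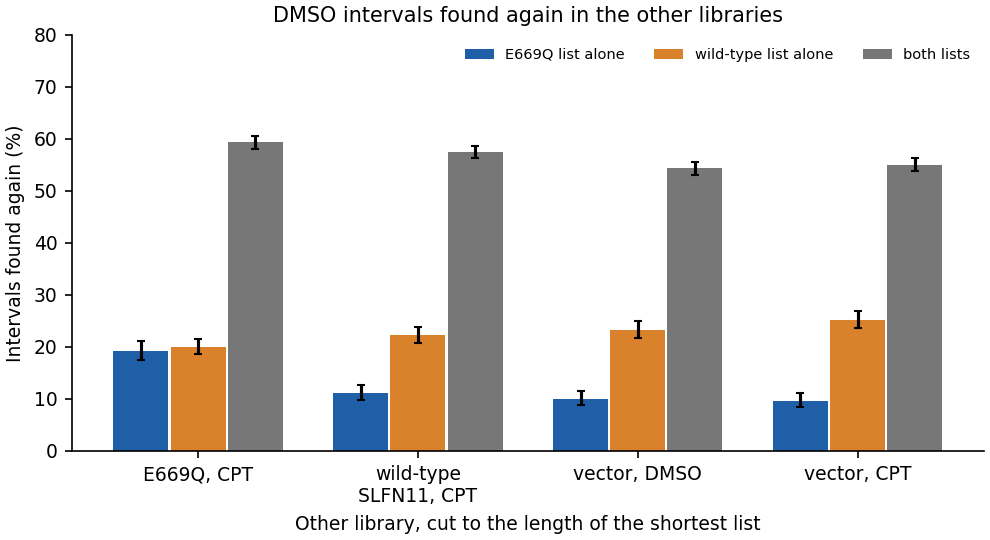
Share of intervals found again in each of the other 4 libraries, each cut to its 5246 strongest intervals: those in the E669Q list alone (blue, 1956), in the wild-type list alone (orange, 2860) and in both (grey, 6409); bars carry exact Clopper-Pearson 95% intervals (counting error only). The blue bar is highest in E669Q with CPT, 19.3%, and 9.66% to 11.1% elsewhere, while the orange bars are between 20.0% and 25.2%. Blue and orange intervals were chosen against lists of unlike depth, so their heights are not comparable with each other.

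The blocks bear on this, but the order was also there outside them. In raised blocks 26.6% (22.8 to 30.6) of 516 E669Q-alone intervals were in E669Q with CPT and 11.6% (8.99 to 14.7) in wild-type SLFN11 with CPT. Inside these blocks the lean to E669Q with CPT was not particular to E669Q-alone intervals. Of 302 wild-type-alone intervals there, 28.5% (23.5 to 33.9) were in E669Q with CPT and 18.5% (14.3 to 23.4) in wild-type SLFN11 with CPT. For shared intervals there the shares were 65.2% and 49.2%. Outside the blocks the shares of 1392 intervals were 16.7% (14.7 to 18.7) and 10.9% (9.33 to 12.7), with 11.1% and 10.5% in the vector libraries. In lowered blocks 39.5% (31.8 to 47.6) of 157 wild-type-alone intervals were in vector with CPT, and 16.6% (11.1 to 23.3) in E669Q with CPT. In the lists as deposited, 853 regions were in both E669Q libraries and in neither wild-type library, 32.1% of them in raised blocks, and 244 were in both wild-type SLFN11 libraries and in neither E669Q library, 6.56% in raised blocks. The E669Q library with CPT is the deepest of the series and wild-type SLFN11 with CPT 1 of the 3 shallowest, so these 2 numbers are not at equal depth.

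The strongest regions of E669Q alone were found again in E669Q with CPT. Of the 10 with the highest fold and a width over 150 bp, all 10 were in that library, 2 in wild-type SLFN11 with CPT, and 1 in each vector library. Calls of named regions are from the lists as deposited, which are not at equal depth. E669Q with CPT has 12337 intervals there, wild-type SLFN11 with CPT 5562, and the vector 5246 with DMSO and 5806 with CPT. The first lay on chromosome 7 from 149807530 to 149807809, with a summit of 27 fragments and a fold of 14.8. It had 18 fragments in E669Q with CPT and 9 in wild-type SLFN11 with CPT, and was not called in wild-type SLFN11 with DMSO or in the vector. On chromosome 2 from 162065132 to 162065313 E669Q had 16 fragments (DMSO) and 14 (CPT) and the vector with CPT 9, and the other 3 libraries had no call. The region on chromosome 8 from 2075418 to 2075797 had 15 fragments and 27 with CPT, with 5 in wild-type SLFN11 with CPT and 8 in vector with DMSO. The other 7 were called in the 2 E669Q libraries and in none of the other 4. They were chromosome 13 from 110141457 to 110141637 (12 fragments with DMSO, 11 with CPT), chromosome 2 from 78204599 to 78204959 (16 and 18), chromosome 6 from 22349319 to 22349495 (14 and 10), chromosome 11 from 123525112 to 123525469 (14 and 12) and from 40141326 to 40141558 (12 and 17), and chromosome 4 from 90810407 to 90810710 (13 and 13) and from 154694451 to 154694926 (14 and 10). Those on chromosome 4 lie in its raised block. That on chromosome 11 from 40141326 lies in the lowered block there, and the other 7 lie in no block.

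The strongest wild-type-alone regions, which were missing in E669Q with DMSO, were mostly called in the vector line and in E669Q with CPT. How often other wild-type regions of like strength were called there was not compared. Of the 10 with the highest fold in the cut wild-type list and a width over 150 bp, 8 were in vector with DMSO, 9 in vector with CPT, 7 in E669Q with CPT and 3 in wild-type SLFN11 with CPT, and none lay in a block. Over all 2860 wild-type-alone intervals the shares in these libraries were 23.3%, 28.4%, 57.1% and 23.9%, in the same order. On chromosome 1 from 100715330 to 100715634 wild-type SLFN11 had 29 fragments (DMSO) and 6 (CPT), the vector 10 and 13, and E669Q with CPT 17. On chromosome X from 14082922 to 14083578 there were 20 in wild-type SLFN11 with DMSO, 20 in E669Q with CPT, and 6 and 10 in the vector. Both regions are thus missing in E669Q with DMSO but not in the line. On chromosome 18 from 2854110 to 2854545 there were 22 in wild-type SLFN11 with DMSO and 5 and 9 in the vector, with no call in either E669Q library. On chromosome 12 from 33905925 to 33906130 there were 16, with 5 and 12 in the vector, a call in wild-type SLFN11 with CPT and none in E669Q. The region on chromosome 9 from 66823472 to 66823664, with 28 fragments, was in no other library.

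Of the 5 strongest regions present in both wild-type SLFN11 libraries and in neither E669Q library, the region of chromosome 12 above among them, 4 were also called in the vector line. On chromosome 6 from 169825282 to 169825916 wild-type SLFN11 had 37 fragments (DMSO) and 20 (CPT), and the vector 14 and 25. On chromosome 1 from 186051502 to 186051675 there were 16 and 6, and 7 and 12 in the vector. Chromosome 16 from 59552647 to 59552995 had 19 and 7, and 8 in vector with DMSO. Chromosome 8 from 27348551 to 27348718 had 17 and 5 and was the 1 of the 5 strongest with no call in the vector. Over all 244 such regions 81 were in a vector library, and of the 853 regions kept in E669Q 202 were.

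Among shared regions the 5 largest excesses of summit height in E669Q were 1.88 to 2.38 on the log2 scale of depth-scaled summits. The first was on chromosome 3 from 160665444 to 160665571, in the second raised block of that chromosome. It is 128 bp wide and had 54 fragments in E669Q with DMSO and 65 with CPT, 14 and 11 in wild-type SLFN11, and 13 with DMSO but 59 with CPT in the vector. On chromosome 4 from 132300474 to 132301163 there were 27 and 28 fragments in E669Q, 9 in wild-type SLFN11 with DMSO and 9 in vector with DMSO (2.02). On chromosome 15 from 90931182 to 90931548 there were 23 and 31 in E669Q, 8 and 9 in wild-type SLFN11 and 8 in vector with CPT (1.96). On chromosome X from 102941621 to 102941955 there were 23 and 23 in E669Q, 7 and 6 in wild-type SLFN11 and 6 in vector with CPT (2.15). In the last 3 of these regions both E669Q libraries were above each other library that called the region. The fifth, on chromosome 1 from 57684344 to 57684763 (1.88), had 19 fragments in E669Q with DMSO, 7 in wild-type SLFN11 with DMSO and 6 in vector with DMSO, and was not called in E669Q with CPT or in the other libraries with CPT.

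Of the 5 regions with the largest deficit in E669Q with DMSO, 4 were called in E669Q with CPT, a library 1.66 times as deep. On chromosome 2 from 158786550 to 158786753 E669Q had 6 fragments (DMSO) and 21 (CPT), wild-type SLFN11 26 and 10, and the vector 15 and 13 (−1.68). On chromosome 8 from 23351770 to 23351944 there were 5 and 13 in E669Q, 21 and 11 in wild-type SLFN11, and 16 and 16 in the vector (−1.64). On chromosome 1 from 179016021 to 179016644 there were 11 and 27 in E669Q, 45 and 17 in wild-type SLFN11, and 21 and 28 in the vector (−1.60). None of the 5 regions with the largest deficit lay in a block. With summits of 5 to 11 fragments in E669Q with DMSO, these ratios rest on few fragments.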

How the data were processed

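ATAC-seq was made on 3 K562 lines with DMSO or CPT, 1 library per group. Per the submitters' processing notes, the tools were MACS2 2.1.2, Picard 2.9.2, SAMtools 1.8, Bowtie2 2.2.6 and Trimmomatic 0.39, and the build hg19. Settings and read numbers are not given in the sources used here. In the deposited lists each summit has the authors' fold enrichment (a ratio), −log10 p, −log10 q and a score. Peaks were listed per library. Groups come from the labels.

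Distinct intervals were used, each with its entry of highest −log10 p. Assuming MACS2's formula, the summit pileup (a whole number) and the local background were solved from fold and −log10 p within 0.001 for 95.3% to 99.0% of entries. Relative depth is the lowest background over the step of 1 fragment. Summit ratios were scaled by the ratio of the lowest backgrounds. Segments needed 10 intervals, and blocks 3 bins past 0.2. Named regions are the 10 of highest fold per line wider than 150 bp, the 5 kept in each line and the 5 largest summit ratios each way. The block rule and the steps were chosen after seeing the data, and members and lists with earlier results of these data known. Functions were tested on simulated data. Python 3.11.15, numpy 2.4.6, pandas 2.3.3 and scipy 1.17.1 were used. Gene lists and sequences were not analysed here, as no hg19 annotation or genome was used.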

Additional observations from a re-analysis of the deposited data

How the results depend on the processing

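The larger E669Q shares of chromosomes 4, 12, 15 and 19 and the smaller one of chromosome 5 kept their direction, with an interval excluding 0, in the lists as deposited, in lists matched by fold, at −log10 q of at least 5 and in intervals wider than 150 bp. The interval of chromosome 6 included 0 at −log10 q of at least 5. Shared intervals as a percentage of the E669Q and the wild-type list were 76.6 and 54.7 as deposited, 65.3 and 64.3 matched by fold, 76.1 and 48.2 at −log10 q of at least 5, and 46.8 and 46.8 when 50% of both intervals had to overlap. Raised segments numbered 5 with bins moved by 5 Mb, and lowered segments 1 in intervals wider than 150 bp. Lowered blocks numbered 2 when centred without the 5 chromosomes of the largest shift, 13 when centred on the lowest background and 1 at a threshold of 0.3; the last 2 settings were chosen after seeing the data. By fold enrichment 10 shared intervals were at least 2-fold higher and 69 lower.

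As deposited, 52.6% of E669Q-alone intervals were in E669Q with CPT, 11.8% in wild-type SLFN11 with CPT, 10.0% in vector with DMSO and 11.04% in vector with CPT. With the other lists cut to the shortest, the values that moved were 19.3% (E669Q with CPT) and 9.66% (vector with CPT). With 50% overlap they were 30.3%, 5.83%, 6.08% and 5.52%, and in intervals wider than 150 bp 55.4% in E669Q with CPT. Of wild-type-alone intervals as deposited, 57.1%, 23.9%, 23.3% and 28.4% were in these libraries. Cut to the shortest these were 20.0%, 22.3% and 25.2% in E669Q with CPT, wild-type SLFN11 with CPT and vector with CPT. With 50% overlap they were 35.8%, 14.7%, 13.1% and 16.5%, and in intervals wider than 150 bp 59.3%, 25.9%, 25.1% and 30.6%. Over all wild-type-alone intervals, the higher recurrence in E669Q with CPT than in wild-type SLFN11 with CPT thus holds only where that deepest list is left whole. In raised blocks it was also there with the lists cut to the shortest, at 28.5% against 18.5% of 302 intervals. The promoter and gene list settings were not run. No paired analysis was possible because the 2 groups compared share 1 replicate number only, with 1 library each. The DMSO and CPT pairs are given side by side, and a joint fit of line and treatment over the 6 libraries was not run. Depth limits weak regions most, since median summits were 8 to 11 fragments.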

Other observations

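Shorter stretches leaned the same way in both pairs of libraries. On chromosome 11 from 30 to 40 Mb the background of E669Q over wild-type SLFN11 was −0.57 on the log2 scale with DMSO and −0.53 with CPT (16 shared intervals in each), inside the lowered block of that chromosome, whose other bins were −0.31 to −0.26 with DMSO. On chromosome X from 110 to 120 Mb it was −0.66 and −0.39 (11 and 8 intervals). On chromosome 16 the split of least squares lay between 56485698 and 56764011 with DMSO and between 58163558 and 58663689 with CPT, and the background after it was −0.25 and −0.23. On chromosome 18 it was −0.23 and −0.16 after splits between 51884549 and 53415586 and between 53415831 and 54305544. These were picked after seeing the values.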
